A study of Stylosanthes guianensis with 9 samples.

Results

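A set of 133 of the 54199 genes listed for stylo root tips was high at 24 h after germination, lower in every library of 48 h and 72 h, and at a similar level at those 2 later times. Stylo (Stylosanthes guianensis) is a tropical pasture legume, and the material was total RNA of roots, given in the series description as root tips of the genotype Reyan No. 2, with no treatment stated in the labels. Tips were taken at 24 h (3 replicates), 48 h (3 replicates) and 72 h (3 replicates) after germination. Whether replicates came from separate plantings is not stated, so the spread between them, which is all that p-values here measure, may be technical. Levels are RPKM, the reads of a gene per kilobase of its length scaled to the size of its library.

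Membership was set by the levels themselves. A gene needed at least 10 RPKM in every 24 h library, at least 2 times the highest later library in the lowest 24 h library, more than 1 RPKM in every later library, and a mean at 72 h between 0.67 and 1.5 times the mean at 48 h. Replicate 3 at 72 h took no part, because it is a near copy of replicate 1: no gene had fewer reads in it, and it held 2.86% additional reads. Wherever the rule or its limits are applied, 72 h is replicates 1 and 2. Elsewhere replicates 1 and 3 at 72 h are averaged as 1 sample, called the shared 72 h library, unless they are given singly. This left 3 samples of 24 h, 3 of 48 h and 2 of 72 h. The fall after 24 h and the level course after it were therefore chosen, and their sizes are given as a description.

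Germination ends when the young root breaks through the seed coat. The tip of that root carries the meristem, which makes new cells, the cap that protects it, and behind them the zone where cells elongate. In the first days the tip passes from a state inherited from the seed, with stored reserves and transcripts made before emergence, to steady growth, and the cap of some legumes releases border-like cells. In whole tips, fewer cells of a type and less RNA per cell cannot be told apart. The files pair the gene IDs, which have the form of assembled components, with no gene names, so the functions of the members are not given here and the labelled tissue was not checked against marker genes.

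The 9 libraries held 28453545 to 37783453 reads. Replicate 1 at 24 h and replicate 2 at 72 h stood apart from the others, listing 24907 and 27888 genes at 0, against 8585 to 12163 in the other 7. A gene missing in either of these 2 libraries could not pass. Without replicate 2 at 72 h the conditions were met by 247 genes, of which 121 were among the 133 members and 25 were listed at 0 in that library. Without replicate 1 at 24 h they were met by 145 genes, of which 0 were listed at 0 in it. Without replicates 2 and 3 at 24 h they were met by 185 and 168 genes. Zeros in replicate 1 at 24 h thus kept no gene out. Without both replicate 1 at 24 h and replicate 2 at 72 h the conditions were met by 265 genes.

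A total of 458 genes were at 10 RPKM or more in every 24 h library and at least 2 times as high as in every later library. The 133 members made up 29.0% of them. A further 105 genes (22.9%) also stayed above 1 RPKM but had a 72 h mean of 0.67 times the 48 h mean or less, and 9 genes (1.97%) had a 72 h mean of at least 1.5 times the 48 h mean. The remaining 211 genes (46.1%) dropped to 1 RPKM or less in some later library, of which 81 did so in replicate 2 at 72 h alone, 54 of them being listed at 0 there.

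No gap set the members apart from the genes that fell again. Over the 247 genes above 1 RPKM in every later library, the ratio of the 72 h mean to the 48 h mean ran continuously across the lower limit, with 0.674 as the lowest value inside and 0.669 as the highest outside. At the upper limit the nearest values were 1.41 inside and 1.51 outside. The name plateau is thus a range within a distribution, and a narrower range, from 0.8 to the inverse of 0.8, would have kept 77 genes.

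**Figure D1:**
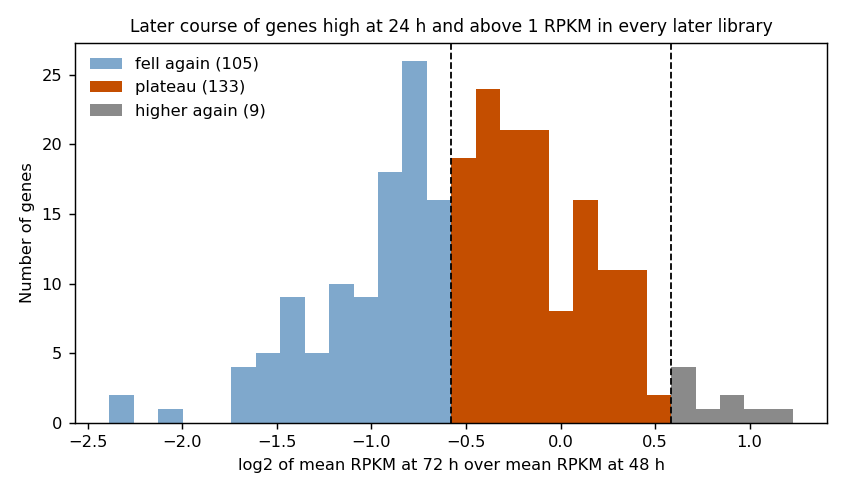
Number of genes (y axis) by the log2 ratio of mean RPKM at 72 h to mean RPKM at 48 h (x axis), for the 247 genes high at 24 h and above 1 RPKM in every later library; dashed lines mark ratios of 0.67 and 1.5, and 72 h is the mean of replicates 1 and 2. The 133 plateau genes lie between the lines with no gap to the 105 genes that fell again, and 9 genes lie above 1.5.

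The other conditions also passed through dense ranges. The lowest 24 h value among members was 10.02 RPKM, and the highest among the 36 genes that failed this condition alone was 9.92. The lowest 24 h library was at least 2.03 times the highest later library, against 1.998 in the nearest of the 7443 genes that failed only this condition. The lowest later value was 1.06 RPKM, against 0.985 in the nearest of the 36 genes that failed only there.

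Most members were moderately expressed at 24 h, and the typical fall was about 4-fold. The median over the members was 35.3, 29.96 and 29.0 RPKM in replicates 1, 2 and 3 at 24 h, 6.29, 6.67 and 7.42 RPKM in replicates 1, 2 and 3 at 48 h, and 7.17 and 5.13 RPKM in the shared library and replicate 2 at 72 h. The median of all members thus stood apart between 24 h and the later times, while the medians of 48 h and 72 h overlapped. The fold of the 24 h mean over the 48 h mean had a median of 4.01 and quartiles of 3.21 and 6.28, with extremes of 2.17 and 92.7. Over the 72 h mean the median fold was 4.40, with 96.2 as the highest. Expressed as a remainder, the median member kept 24.9% of its 24 h level at 48 h and 22.7% at 72 h.

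**Figure D2:**
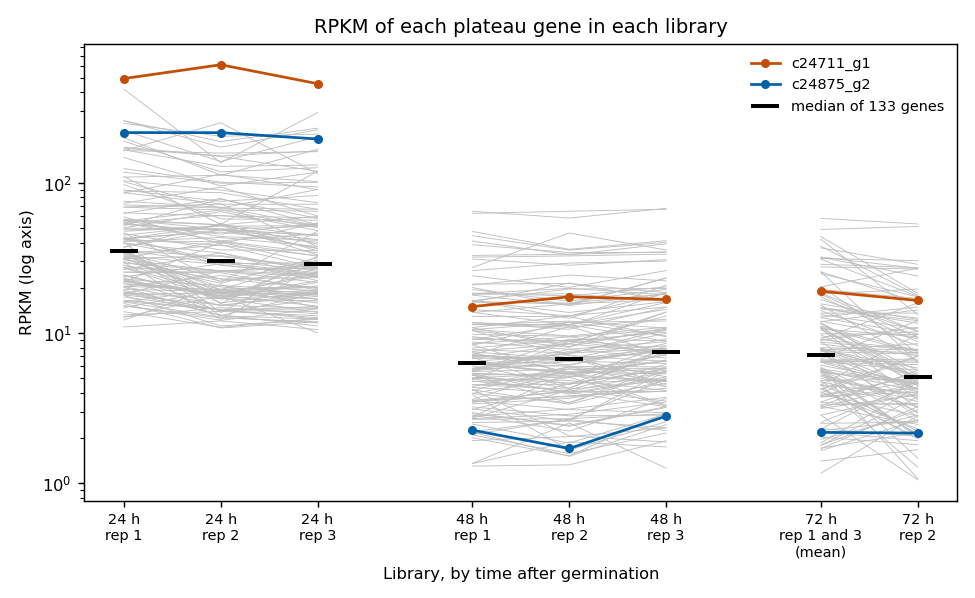
RPKM on a log axis (y axis) of each of the 133 genes in each library (x axis, ordered by time after germination); grey lines join the libraries of a time, black bars are medians over the genes, and 2 genes are drawn in colour. Every line lies lower at 48 h and 72 h than at 24 h, as the choice of genes requires, and the medians at 48 h (6.29 to 7.42) and 72 h (5.13 and 7.17) overlap.

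The fall was small in most members and large in few. It was under 3-fold in 22 members (16.5%), 3- to under 5-fold in 65 (48.9%), 5- to under 10-fold in 27 (20.3%), 10- to under 20-fold in 11 (8.27%) and 20-fold or more in 8 (6.02%). The 8 members with the largest falls were also high at 24 h, with a median of 101.3 RPKM, and low later, with medians of 2.37 RPKM at 48 h and 2.42 RPKM at 72 h. In the 27 members that fell 5- to under 10-fold the medians were 27.9, 4.21 and 3.59 RPKM at 24, 48 and 72 h, and in the 22 that fell under 3-fold they were 27.6, 9.43 and 8.06 RPKM. These last groups began at a similar level, so that, being cut by their fall, they had to differ in what remained at 48 h.

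The gene c24875_g2 fell most. It had 215.5, 215.3 and 195.3 RPKM in replicates 1, 2 and 3 at 24 h, then 2.26, 1.70 and 2.80 RPKM in those of 48 h, and 2.18 RPKM in the shared library and 2.16 RPKM in replicate 2 at 72 h. The 3 libraries of 24 h lay far above all others and close to each other, while the 2 samples of 72 h fell within the range of 48 h. Its means for 24, 48 and 72 h were 208.7 ± 11.6 (SD, n = 3), 2.25 ± 0.546 (SD, n = 3) and 2.17 ± 0.0162 RPKM (SD, n = 2). About 1% of the first level thus remained, namely 1.08% at 48 h and 1.04% at 72 h. The later values of c24875_g2 rested on 80 to 140 reads per library, against 8799 to 9179 reads at 24 h, over a length of 1335 nt.

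The gene c24711_g1 was the most abundant member at 24 h and had the fourth largest fall. It reached 493.0, 609.4 and 455.9 RPKM in replicates 1, 2 and 3 at 24 h. In the libraries of 48 h it had 14.99, 17.4 and 16.7 RPKM, and at 72 h it had 19.0 RPKM in the shared library and 16.5 RPKM in replicate 2. Its means for 24, 48 and 72 h were 519.4 ± 80.1 (SD, n = 3), 16.4 ± 1.249 (SD, n = 3) and 17.7 ± 1.78 RPKM (SD, n = 2). The levels of 48 h and 72 h overlapped, and 3.15% and 3.41% of the 24 h level remained. On its own c24711_g1 (1378 nt) held 5.62% to 8.30% of all reads of the members at 24 h.

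The next falls were smaller by steps. The members ranked 2 and 3 by fall dropped 54.6-fold and 36.8-fold, with means of 106.2 ± 15.8 and 75.5 ± 16.9 RPKM at 24 h (SD, n = 3), and both had later means of 1.94 to 2.44 RPKM. Those ranked 5 to 8 fell 26.2-, 25.3-, 24.7- and 22.6-fold. The last of these is also the shortest member, at 233 nt, and varied most of these at 24 h, with 163.2, 250.6 and 115.1 RPKM in replicates 1, 2 and 3.

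Members in the middle of the order fell less. At the median of the fall stood a member with 33.7, 38.6 and 27.1 RPKM in replicates 1, 2 and 3 at 24 h, 7.95, 9.01 and 7.78 RPKM at 48 h, and 9.37 and 10.2 RPKM in the shared library and replicate 2 at 72 h. At the lower quartile of the fall was one with means of 21.5 ± 2.32 (SD, n = 3), 6.69 ± 1.03 (SD, n = 3) and 8.09 ± 0.556 RPKM (SD, n = 2) at 24, 48 and 72 h. The smallest fall, 2.17-fold, came with means of 70.9 ± 1.70 (SD, n = 3), 32.7 ± 0.743 (SD, n = 3) and 30.8 ± 0.799 RPKM (SD, n = 2). This last member is the longest of the set, 5744 nt, and its 24 h libraries differed least of the examples given.

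Level and fall were loosely related. Of the 18 members at 100 RPKM or more at 24 h, the median fall was 6.63-fold, with a range of 2.49 to 92.7, and of the 33 members under 20 RPKM it was 3.69-fold, with a lowest value of 2.43 and a highest of 10.02. Part of this is set by the choice, since a low gene could not fall far and stay above 1 RPKM. Across the 133 genes, which share the same libraries, Spearman's rho was 0.27 between the fall and the 24 h level and 0.64 between the 24 h and the 48 h level. Between the fall and the 48 h level it was -0.44. The choice also ties these values, since the lowest 24 h value had to be at least 2 times every later value. The fall is moreover computed from both levels. The coefficients are therefore a description of the chosen genes only.

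Together the members took a small share of each library. Their reads were 1.21%, 1.01% and 1.05% of replicates 1, 2 and 3 at 24 h, then 0.216%, 0.211% and 0.238% of those at 48 h. At 72 h they were 0.225%, 0.173% and 0.224% of replicates 1, 2 and 3, the outer 2 being near copies. For 24, 48 and 72 h the share averaged 1.09 ± 0.106% (SD, n = 3), 0.222 ± 0.0143% (SD, n = 3) and 0.199 ± 0.0367% (SD, n = 2). The 10 members with the most reads were picked in each library separately, and were not the same genes throughout. They held 31.6% to 33.8% of the members' reads at 24 h and 30.1% to 33.1% at the later times.

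**Figure D3:**
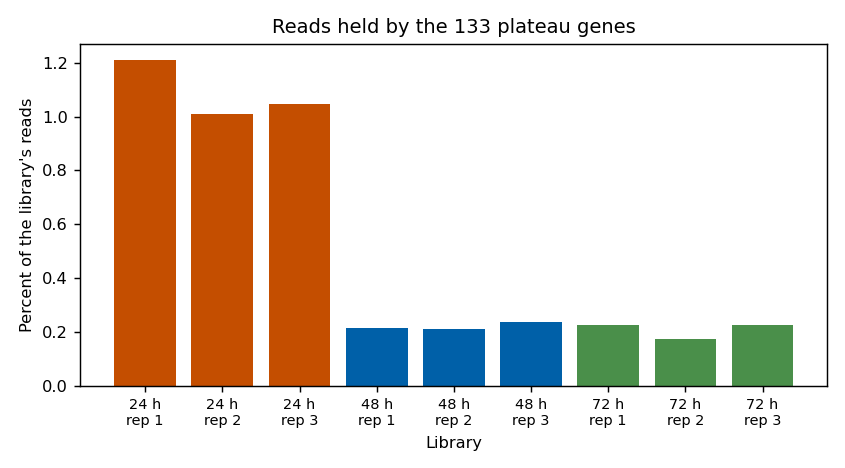
Percent of each library's reads that fell on the 133 genes (y axis, from 0) in each of the 9 libraries (x axis); bars are single libraries coloured by time, and replicates 1 and 3 at 72 h are near copies. The 24 h libraries lie between 1.01% and 1.21%, the later ones between 0.173% and 0.238%.

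A fit over all 28428 genes with at least 1 RPKM in at least 3 columns was made with limma on log2(RPKM + 1), a scale that understates changes of low genes. At an adjusted p under 0.05 all 133 members were lower at 48 h than at 24 h, where 5.53% of all genes tested were lower and 2.08% higher, and all 133 were lower at 72 h than at 24 h, where 9.42% of all genes were lower and 3.88% higher. Because the members were chosen on these very contrasts, which also share the 24 h libraries, the counts carry no information beyond the choice. The median log2 difference of the members was -1.86 (range -6.02 to -1.09) for 48 h minus 24 h, beside a median of 0.0046 over all genes tested. For 72 h minus 24 h it was -2.02 (range -6.05 to -1.18), beside -0.07 over all genes.

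Between 72 h and 48 h no member was called by limma, nor was any other gene (0% of 28428). At an unadjusted p under 0.05 there were 5 of 133 members and 3161 genes in all (11.1%). The median log2 difference of the members, 72 h minus 48 h, was -0.17 (range -0.65 to 0.47), beside -0.08 over all genes. The limits on the ratio of RPKM means restrict this range without setting its ends, since the fit uses means of log2(RPKM + 1). For c24875_g2 it was -0.02 with a standard error of 0.198, and for c24711_g1 it was 0.11 with a standard error of 0.161, so that neither difference was larger than its error. A missed threshold with 2 samples at 72 h does not show that levels stayed the same. With the shared 72 h library left out, 10 members and 3496 genes in all were called between 72 h and 48 h, in a fit that took replicate 2 to vary like the other times.

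The later level differed between the 2 samples of 72 h. In the shared library the median member stood at 0.985 times its 48 h mean, and 64 of 133 members were above that mean. In replicate 2 it stood at 0.798 times the 48 h mean, and 37 members were above it. Replicate 2 is the library with 27888 genes at 0, and the same direction appeared in the other 8899 genes at 10 RPKM or more in every 24 h library, whose medians over those with a 48 h value above 0 were 0.862 in replicate 2 and 1.02 in the shared library. The part of this library in the slight decline of the members was not tested.

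Levels at 72 h and 48 h were separate in part of the members, as in part of all genes tested. In 27 members (20.3%) both 72 h samples lay below every 48 h library, against 14.4% of all genes tested, and in 11 members (8.27%) both lay above, against 15.5% of all genes. In the other 95 members the samples of the 2 times overlapped. Separation below the 48 h libraries was thus more frequent in the members than over all genes, and separation above them was less frequent. Neither difference was tested. Overlap was also the most frequent case over all genes, so it is not particular to the members. The limits on the ratio act on these counts too. In 34 members the 2 samples of 72 h were at least 2 times apart, with replicate 2 the lower in 29 of them. The widest gap was in a member with 5.53 RPKM in the shared library and 1.07 RPKM in replicate 2, next to 2.71, 4.19 and 6.19 RPKM in replicates 1, 2 and 3 at 48 h.

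The rule used the 24 h values but did not fix which library was the highest of them. Replicate 1 was the highest 24 h library in 89 of 133 members (66.9%), replicate 2 in 33 (24.8%) and replicate 3 in 11 (8.27%). Among the other genes at 10 RPKM or more in every 24 h library the shares were 36.0%, 35.7% and 28.3%. The same lean was found in the 105 genes that fell again (66.7% highest in replicate 1) and in the 211 with a later value of 1 RPKM or less (62.6%). Genes share these libraries and are no replicates, so no test was made. Replicate 1 is the 24 h library with 24907 genes at 0, and whether that bears on the order was not tested.

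**Figure D4:**
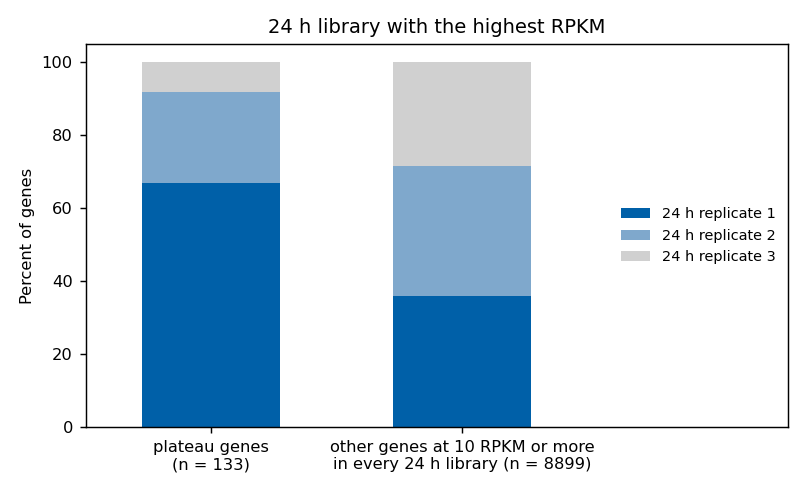
Percent of genes (y axis) by the 24 h library with the highest RPKM, for the 133 plateau genes and for 8899 other genes at 10 RPKM or more in every 24 h library. Replicate 1 is the highest in 66.9% of the plateau genes and 36.0% of the others.

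The difference between 24 h libraries was modest in size. The median member stood at 1.11 times its 24 h mean in replicate 1, 0.960 times in replicate 2 and 0.931 times in replicate 3. The highest 24 h library was less than 1.5 times the lowest in 93 members and at least 2 times in 11. The second most abundant member was the widest, with 418.9, 136.0 and 292.6 RPKM in replicates 1, 2 and 3 at 24 h. It then had 47.4, 36.0 and 41.1 RPKM at 48 h, and 37.8 and 17.8 RPKM in the shared library and replicate 2 at 72 h.

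Replicate 1 was the highest 24 h library in 14 of the 22 members that fell under 3-fold, 48 of the 65 that fell 3- to under 5-fold, 18 of the 27 that fell 5- to under 10-fold and 6 of the 11 that fell 10- to under 20-fold. In the 8 that fell 20-fold or more it was the highest in 3 and replicate 2 in 5, and no difference between these groups was tested. Within 48 h, replicate 3 was the highest library in 79 members (59.4%), close to the 58.8% of the other genes at 10 RPKM or more at 24 h.

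Gene length can be read from the steps of the RPKM values. It was no condition of the choice, but RPKM is scaled by it, and at 1 RPKM a shorter gene has fewer reads. The lengths of the groups are therefore not independent of the choice. The members had a median length of 1488 nt, with quartiles of 935 and 2163 nt and extremes of 233 and 5744 nt. The other genes at 10 RPKM or more in every 24 h library were of similar length, with a median of 1588 nt. Genes that fell again by 72 h had a median of 1304 nt, and those with a later value of 1 RPKM or less had a median of 1068 nt. In the members 28.6% were 2000 nt or longer, compared with 14.3% of the genes that fell again, 12.8% of those with a later value of 1 RPKM or less and 34.1% of the other abundant genes. Among the members, length and fall were nearly unrelated (Spearman's rho -0.13 across 133 genes).

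**Figure D5:**
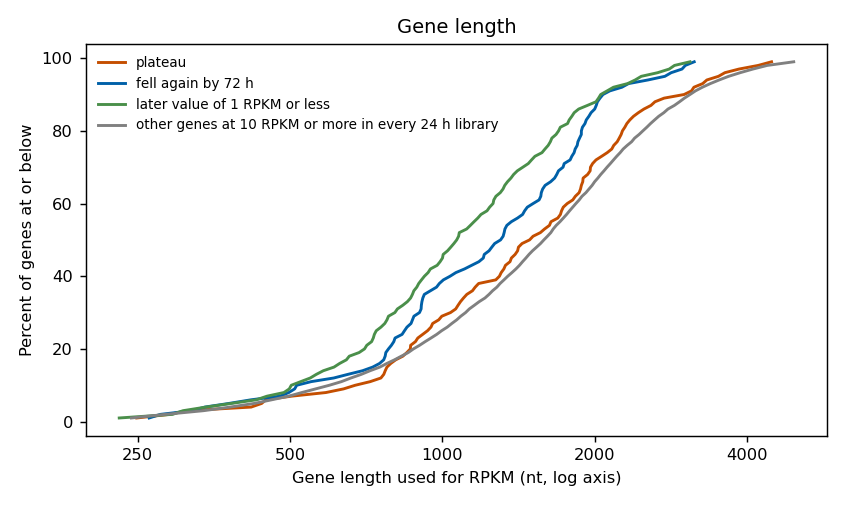
Percent of genes at or below each length (y axis) by gene length in nt on a log axis (x axis), for 133 plateau genes, 105 genes that fell again, 211 genes with a later value of 1 RPKM or less and 8899 other genes at 10 RPKM or more in every 24 h library. The plateau genes (median 1488 nt) lie near the other abundant genes (median 1588 nt), and the genes that fell again (1304 nt) and those with a later value of 1 RPKM or less (1068 nt) lie to the left.

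Several members came from the same assembled component, the part of the ID shared by sequences that the assembly kept together. The 133 members fell into 127 components, and 6 components held 2 members each. In 5 of these 6 pairs the shorter gene was the less abundant at 24 h. One pair made up a whole component, with 160.7 RPKM over 1155 nt and 32.4 RPKM over 270 nt at 24 h and falls of 2.49-fold and 4.61-fold. Another pair fell 10.2-fold and 8.17-fold, at 62.5 and 30.3 RPKM at 24 h. Genes of 1 component can be pieces or copies of each other whose reads the counting could split, so such pairs are not independent members.

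Other genes of the same components were also lower after 24 h in part of the cases. A total of 90 members (67.7%) lay in components of 2 or more genes, as did 63.4% of all genes at 10 RPKM or more in every 24 h library. Their components held 352 genes that were not members, of which 292 were tested. Of those, 31 (10.6%) were called lower at 48 h than at 24 h, beside 5.53% of all genes tested, and 7 were called higher. Of the 106 that reached 10 RPKM in every 24 h library, 21 (19.8%) were called lower, beside 9.49% of all genes at that level. Most neighbours in a component therefore did not pass the test, and because reads may be shared within a component the count is a description.

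Fewer reads stood behind the later values of the members than behind those of 24 h. Members had 14 to 7211 reads in a later library and 85 to 26822 reads in a 24 h library. A total of 32 members had fewer than 100 reads in some later library and 2 had fewer than 30. The lowest count, 14 reads, came from a member of 239 nt, in the second replicates of 48 h and 72 h. There its 1.67 and 2.06 RPKM had exact Poisson 95% intervals of 0.911 to 2.79 and 1.13 to 3.45 RPKM, which cover counting error only. For that gene the later course is not resolved at this depth.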

How the data were processed

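RNA of root tips was measured in 9 libraries at 24, 48 and 72 h after germination. The authors deposited RPKM values for 54199 genes, 1 column per library, and the submitters' processing notes list HTSeq 0.6.0. The aligner, the assembly and the filters are not given in the sources used here. All 9 columns were matched to samples by their labels. The members and lists were chosen with earlier results of these data known.

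Library totals and gene lengths were recovered as the whole numbers at which each RPKM is a whole number of reads, for all 54199 genes. Summed over genes, these reads came to 99.8% to 99.9% of the totals. The method was tested on simulated data. Replicates 1 and 3 at 72 h were averaged, which left 8 samples. The comparison of times used limma 3.58.1 (R 4.3.3) and the values log2(RPKM + 1), an intensity trend, all times in 1 fit, no replicate block, and Benjamini-Hochberg adjustment over 28428 genes. Other values were computed with Python 3.11.15.

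The 2 IDs named are the members with the largest ratio of 24 h to 48 h and with the highest 24 h mean. Other members are described by rank or as extremes picked after their values were seen. Alternatives changed the conditions of membership, the pseudocount, the filter, the scaling, the trend, the block and the samples.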

Additional observations from a re-analysis of the deposited data

How the results depend on the processing

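The number of members depended on the conditions. It was 133, and became 79 with at least 20 RPKM at 24 h, 279 and 50 with at least 1.5 and 3 times the highest later value, 77 with 72 h over 48 h between 0.8 and the inverse of 0.8, and 247 with no limit on that ratio. With 1 library left out it was 97 to 247, the highest without 72 h replicate 2. Without both 24 h replicate 1 and 72 h replicate 2, an alternative chosen after seeing the data, it was 265. Other changes gave 136 to 167 or, with later values above 2 RPKM, 112.

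Of the 133 members, the fits over all genes called at least 123 lower at 48 h and 129 at 72 h than at 24 h under each of the 20 alternatives, with 123 to 133 and 129 to 133 when 1 library was left out. Between 72 h and 48 h they called 0 members, except 10 without the shared 72 h library. The background moved more. Genes called lower at 48 h were 1571 in all, and 780 with a pseudocount of 0.01. Leaving out 1 library gave 797 to 2215, or 2220 without the shared 72 h library (1039 without 24 h replicate 3, and 797, 844 and 914 without 48 h replicates 1, 2 and 3). At 72 h they were 2679 in all, 1648 with a pseudocount of 0.01, 1319 with only the 2 times compared and 1471 without both doubtful libraries. Leaving out 1 library gave 1241 (without 72 h replicate 2) to 2383, with 1735 without 24 h replicate 3, and 5623 without the shared 72 h library. Genes called between 72 h and 48 h were 0, but 6 with no filter, 15 after median rescaling, 23 after quantile normalization and 39 with all 9 columns as separate samples. Leaving out 1 library gave 0, or 3496 without the shared 72 h library. The cause was not tested. Where 1 sample was left at 72 h, it was assumed to vary like the other times.

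Over all genes tested, samples with the same number had deviations with correlations between -0.05 and 0.22, and those with different numbers between -0.25 and 0.14. Over the 8899 other genes at 10 RPKM or more in every 24 h library, those of 24 h and 48 h correlated at -0.05, 0.42 and 0.37 for replicates 1, 2 and 3. Among those genes, 24 h replicate 2 and 48 h replicate 3 correlated at -0.48, and 24 h replicate 3 and 48 h replicate 2 at -0.35. Since not every pair with the same number correlated positively, the numbers were not taken as pairs. Whether replicates 2 and 3 were matched across times was not tested. The replicate block gave 133, 133 and 0 members and 1536, 2545 and 0 genes. Of 120 values of the 2 named genes under alternatives, 108 moved by less than 1 SD of the gene's 24 h libraries on the log2 scale, 12 by more, and none that was called changed sign. The summed RPKM in place of reads gave shares of 1.09%, 0.213% and 0.191% at 24, 48 and 72 h.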

Other observations

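Of the 50 members lowest in 24 h replicate 2, 35 were lower in 72 h replicate 2 than in the shared 72 h library. So were 17 of the 33 members highest in 24 h replicate 2 and 41 of the 50 in which it lay between the others. Among all 133 members 93 (69.9%) were lower in 72 h replicate 2, beside 69.0% of the other genes at 10 RPKM or more in every 24 h library. Across the 133 members, the deviation of replicate 2 from the other libraries of its time correlated at a Pearson r of 0.20 between 24 h and 72 h, and across the 8899 other genes at 10 RPKM or more in every 24 h library at 0.43. Genes share these libraries and are not independent replicates. Each 24 h library was also left out of the choice and then looked at. Of the 145 genes chosen without replicate 1, 133 (91.7%) met the 24 h conditions in it, as did 71.9% of the 185 chosen without replicate 2 and 79.2% of the 168 chosen without replicate 3. Each time these are the 133 members, because a gene that meets all conditions again is a member by the rule. The 24 h shares therefore only set the number of members against each looser count and check nothing. For 48 h replicates 1, 2 and 3 the shares that met the later conditions were 97.7%, 97.1% and 88.0%. For 72 h replicate 1 it was 86.6% of 97 genes. Most genes that met them were again members, namely 123 of 128, 126 of 133, 127 of 139 and 82 of 84. The choice of the members had used the library left out, so these shares are no separate check. Of the 247 chosen without 72 h replicate 2, 189 (76.5%) were above 1 RPKM in it and at least 2 times below their lowest 24 h value. Of these 189, 121 were members, and 25 of the 247 were listed at 0 in that library.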
